A study of Mus musculus with 44 samples.

Results

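The genes examined were the protein-coding genes of the cytosolic ribosome in the corpus mucosa of the mouse stomach. They were chosen by name: every GENCODE vM21 protein-coding symbol that starts with Rpl or Rps and a digit, together with Rplp0, Rplp1, Rplp2 and Rpsa, without Rps6k genes and without symbols holding -ps. The rule gave 86 genes of 31484 gene names, and 82 of them passed the filter on low counts among 14901 genes tested. The 4 that did not pass were Rpl10l, Rpl39l, Rpl3l and Rps12.

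All mice were female BalbC mice, 13 months old, with biopsies taken from the ventral corpus. WT mice and mice lacking the H+/K+ATPase beta subunit (KO), the product of Atp4b and a part of the acid pump of parietal cells, received either the gastrin receptor antagonist netazepide (NTZ) or its vehicle, polyethylene glycol (PEG). NTZ or PEG was injected under the skin from early in life, and the gene was disrupted by homologous recombination. There were 13 KO/PEG and 11 KO/NTZ libraries beside 11 WT/PEG and 9 WT/NTZ libraries, with total estimated counts between 6064944 and 21944813. Levels are given as CPM, the estimated counts scaled to a common library size after TMM normalization. Atp4b lay between 2139 and 5737 CPM in the WT libraries and between 2.28 and 40.6 CPM in the KO libraries, so no library went against its genotype label. Atp4a, the other pump subunit, which marks parietal cells, lay between 3751 and 9938 CPM in WT and between 1906 and 6978 CPM in KO libraries. A pair of WT/PEG libraries carry the same animal number, as do KO/PEG library 110 and KO/NTZ library 110. Whether same-numbered libraries came from the same animal is not stated, and the KO/PEG libraries outnumber the KO/PEG mice that the study describes. Some libraries may therefore share an animal, and p-values, which measure the spread between libraries, would then be too small.

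The cytosolic ribosome makes the proteins of the cell from a small (40S) subunit, which reads the messenger RNA, and a large (60S) subunit, which forms the peptide bond. Rps genes encode proteins of the 40S subunit and Rpl genes those of the 60S subunit. Rplp0, Rplp1 and Rplp2 form the stalk of the 60S subunit, where elongation factors bind. The messages of these proteins are short and abundant, and many start with a C followed by a run of pyrimidines, the 5′ terminal oligopyrimidine (TOP) tract, through which mTORC1 signalling controls their translation. In the stomach, secretory cells such as the chief cell, which makes pepsinogen, carry large amounts of ribosomes.

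The starts of 5 genes show the tract. Each line gives 10 bases before and 20 bases from the start listed by RefSeq (GRCm38.p6), 5′ to 3′ on the strand of the gene, with the tract in capitals. Rps6 is the 40S protein phosphorylated by S6 kinases, Rpl28 was among the 3 genes with the largest fold change described below, Rplp2 is a stalk protein, and Rps27 and Rps27rt are a pair of near-identical 40S genes.
Rps6, chr4:86857348-86857377, minus strand: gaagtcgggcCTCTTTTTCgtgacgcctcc
Rpl28, chr7:4792955-4792984, plus strand: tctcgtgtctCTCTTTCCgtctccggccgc
Rplp2, chr7:141447641-141447670, plus strand: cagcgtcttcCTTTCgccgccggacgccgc
Rps27, chr3:90213629-90213658, minus strand: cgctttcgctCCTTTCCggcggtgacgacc
Rps27rt, chr9:114982720-114982749, minus strand: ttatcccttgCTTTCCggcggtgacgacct

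RefSeq promoters were listed for 66 of the 86 genes. A tract, meaning a C at the listed start followed by at least 4 C or T, was present at a listed start of 14 of them, or 21.2%, against 3.01% of 27025 genes. The motif CCGGAA, on either strand between 250 bases before and 50 bases after a listed start, was present in 54.5% of the 66 and in 16.7% of all genes. AAGATGG was present in 15.2% and 7.28%, GGGCGG in 62.1% and 38.2%, and TATAAA in 10.6% and 15.7%. Listed starts can lie away from the starts used in this tissue, so a count of tracts at listed starts can miss others.

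Ribosomal protein messages took a larger share of the counts in KO than in WT mucosa. They held between 1.35% and 1.88% of all counts in WT/PEG (median 1.51%), between 1.53% and 2.43% in WT/NTZ (median 1.72%), between 2.85% and 6.61% in KO/PEG (median 4.24%) and between 3.41% and 6.56% in KO/NTZ (median 4.75%). Every KO library lay above every WT library, and the PEG and NTZ groups overlapped within each genotype. These are bulk biopsies, so fewer cells of a type and less RNA per cell cannot be told apart.

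**Figure D1:**
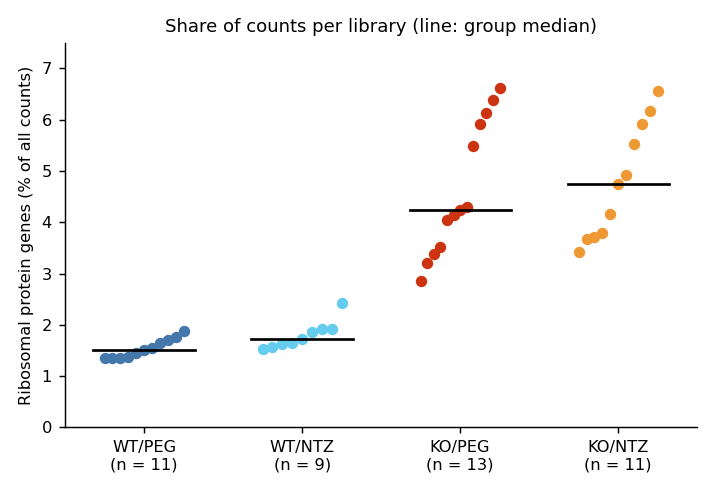
Percent of all estimated counts in the 86 ribosomal protein genes, 1 point per library (horizontal: group; vertical: percent). The black line is the group median. KO libraries lie between 2.85% and 6.61%, all above the WT libraries, which reach 2.43%.

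Within a group the genes moved together from library to library. Among the 13 KO/PEG libraries, 5 had over 70 of the 82 genes above their group median and 5 had under 12. The corresponding numbers were 4 and 5 of 11 in KO/NTZ, 4 and 4 of 11 in WT/PEG and 2 and 3 of 9 in WT/NTZ. In the 4 KO/PEG libraries with the lowest shares, 46 the lowest of them, 0 of the 82 genes lay above their group median, and in KO/PEG library 110 all 82 did. The balance between the subunits varied much less. Paralogs such as Rps27l and Rpl22l1 were left out of the log2 ratio of summed 60S to summed 40S counts. This ratio lay between 0.39 and 0.47 in WT/PEG and between 0.39 and 0.45 in WT/NTZ. It lay between 0.37 and 0.47 in KO mice given PEG, and between 0.42 and 0.49 in those given NTZ.

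In KO/PEG compared with WT/PEG mucosa, all 82 genes tested were higher at an adjusted p under 0.05 and none was lower (edgeR quasi-likelihood test, Benjamini-Hochberg adjustment over 14901 genes). Of all genes tested, 37.5% were higher and 37.2% lower in this comparison. The median log2 fold change of the 82 genes was 1.38, a 2.61-fold difference, with a range from 0.33 to 2.71, while the median of all genes was -0.00. Without the paralogs Rps27l, Rps27rt, Rpl22l1, Rpl36al and Rpl7l1, 30 of 30 genes of the 40S subunit rose with a median of 1.43. Of the 60S subunit, without these paralogs and the stalk, 43 of 43 rose with a median of 1.38. The 5 paralogs all rose, with a median of 0.92. The CPM of 23 of the 82 genes did not overlap between the groups, against 5.46% of all genes for which every KO/PEG library lay above every WT/PEG library. Without KO/PEG library 46, 65 of the 82 did not overlap, against 11% of all genes.

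The stalk genes rose together. Rplp0 lay between 251.1 and 411.2 CPM in WT/PEG (median 308.0) and between 369.8 and 1297 CPM in KO/PEG (median 772.8). The groups overlapped at their edges, and the log2 fold change was 1.38 (SE 0.18, adjusted p = 6.86e-09 by edgeR). Rplp1 rose from a median of 642.3 to 1566 CPM, a log2 fold change of 1.56 (SE 0.22). Rplp2 rose from a median of 228.0 to 650.2 CPM, a log2 fold change of 1.94 (SE 0.26), and the 2 groups did not overlap.

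Among 40S genes, Rpsa, the laminin receptor precursor that is also a 40S protein, rose by 1.54 on the log2 scale (SE 0.21) from a median of 501.2 to 1261 CPM. Rps6 lay between 128.4 and 201.0 CPM in WT/PEG and between 257.3 and 959.0 CPM in KO/PEG. Its ranges were apart, with a log2 fold change of 1.78 (SE 0.21, adjusted p = 1.25e-09 by edgeR). Rps19, the gene most often mutated in Diamond-Blackfan anaemia, rose by 1.46 (SE 0.16). Rps27a, which encodes ubiquitin fused to a 40S protein, lay between 151.4 and 261.7 CPM in WT/PEG and between 268.7 and 609.3 CPM in KO/PEG, without overlap and at a log2 fold change of 1.22 (SE 0.12, adjusted p = 1.14e-11 by edgeR). Rps4x, an X-linked 40S gene, rose by 0.81 (SE 0.09).

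Among 60S genes the smallest p-values belonged to Rpl22, Rpl23, Rpl3 and Rpl7. Rpl22, an RNA-binding protein of the large subunit, lay between 116.0 and 153.7 CPM in WT/PEG with a median of 121.9. It lay between 165.8 and 319.5 CPM in KO/PEG with a median of 254.6. No library overlapped, and the log2 fold change was 0.997 (SE 0.10, adjusted p = 8.94e-12 by edgeR). Rpl23 rose by 1.04 (SE 0.10), Rpl3, which lies close to the peptidyl transferase centre, by 1.39 (SE 0.14), and Rpl7 by 0.82 (SE 0.08). Rpl5 and Rpl11, which with 5S rRNA bind Mdm2, rose by 1.01 (SE 0.27) and 1.14 (SE 0.15). Rpl10 rose by 1.69 (SE 0.27), a call that was lost with pseudogenes added, and Rpl39 by 1.05 (SE 0.12).

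The largest fold changes were those of Rpl34, Rps2 and Rpl28. Rpl34 lay between 11.1 and 192.6 CPM in WT/PEG and between 212.3 and 657.2 CPM in KO/PEG, and the log2 fold change was 2.71 (SE 0.38). In WT, 5 of 20 libraries were near 11 CPM and the others at 56.8 CPM or above, so the WT libraries fell into separate levels. Rps2 was at 3.09 to 7.22 CPM in WT/PEG and at 6.38 to 77.2 CPM in KO/PEG, a log2 fold change of 2.42 (SE 0.48). Rpl28 rose by 2.26 (SE 0.30). The 3 smallest changes were 0.33 (SE 0.08) for Rpl7l1, 0.34 (SE 0.07) for Rpl4 and 0.53 (SE 0.12) for Rps27l. Rps19bp1, which matched the naming rule but encodes a protein that binds Rps19 and is not a ribosomal subunit, rose by 1.20 (SE 0.18).

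**Figure D2:**
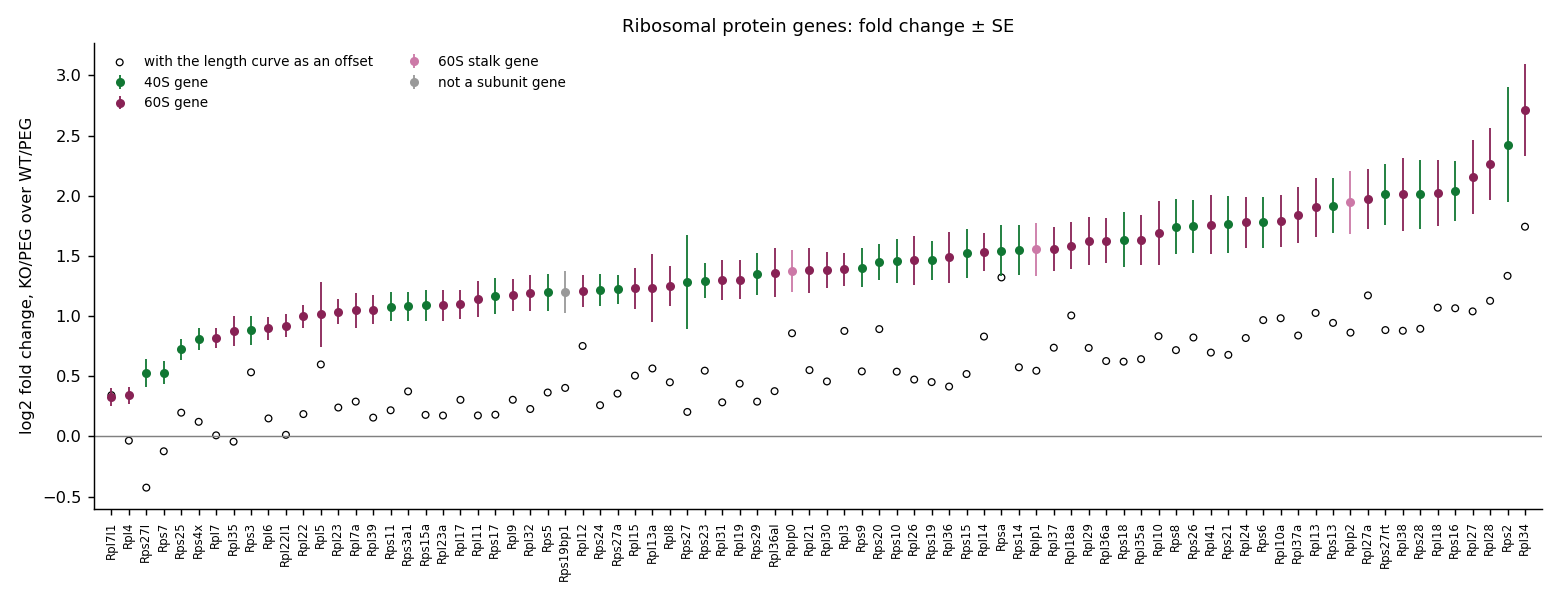
The log2 fold change of each of the 82 genes between KO/PEG and WT/PEG, with its SE, coloured by subunit. Open circles are the same genes fitted with the length curve of each library as an offset. Filled points span 0.33 to 2.71, and open circles lie below them for all genes but Rpl7l1.

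How kallisto divides reads between a gene and its copies bears on these values. Of the 86 genes, 56 had under 50% of their 31-base words to themselves, and 79 had at least 1 pseudogene that shares at least 20% of its words. Adding the counts of 566 such pseudogenes to their genes left 82 of 83 genes higher, with a median of 1.23 in place of 1.38. The exception was Rpl10, which then had 0.09 (SE 0.24, adjusted p = 0.742 by edgeR). The fold change of Rpl34 fell to 1.33, and that of Rps2, of whose combined counts 98.3% sat on pseudogenes, fell to 1.17. Rpl28 fell to 1.51, Rps6 to 1.15, Rpl3 to 0.71 and Rpl5 to 0.67, and all 4 still passed. Rps12, which was at 0 in all KO libraries on its own, and whose pseudogenes held 99.8% of the combined counts, was higher in KO/PEG by 1.49 (SE 0.16) once they were added. Rps12 was chosen after its values were seen. Levels of genes with many copies are therefore uncertain.

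The fold changes also moved with transcript length. The 82 genes had count-weighted lengths between 357.7 and 2606 nt with a median of 645.5 nt, against a median of 2656 nt for the other genes tested. In KO/PEG compared with WT/PEG, other genes under 500 nt had a median log2 fold change of 1.31, with 70.7% of 433 higher. Those of 500 to 750 nt had 0.93 (75.2% higher), those of 750 to 1000 nt 0.80 (73.8%), those of 1000 to 1500 nt 0.60 (67.0%), those of 1500 to 2500 nt 0.23 (48.0%), and those of 2500 nt or longer -0.35 (18.8% higher and 55.0% lower). The ribosomal protein genes of the first 3 lengths had medians of 1.63 (21 genes), 1.40 (29 genes) and 1.23 (18 genes). Each median lay above that of the other genes of the same length, which is a description with no test. Across the 82 genes the log2 fold change had a Pearson correlation of -0.455 with log2 length, and genes of one library set are not independent.

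**Figure D3:**
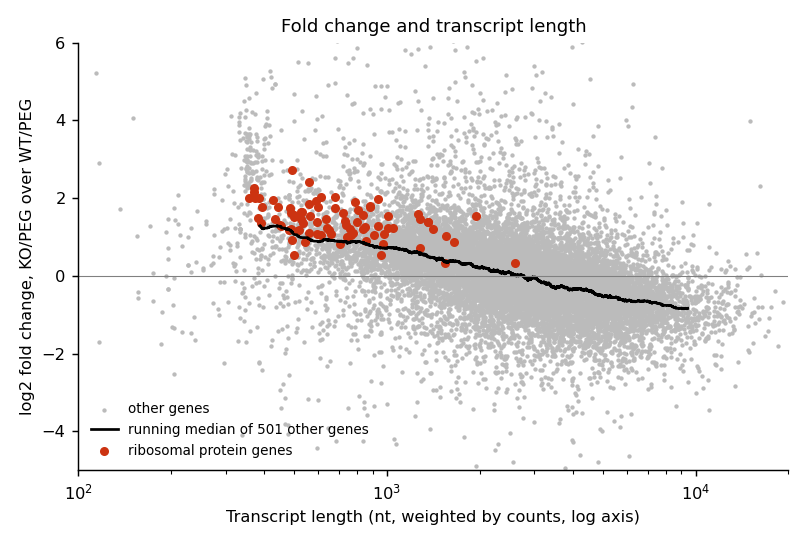
The log2 fold change between KO/PEG and WT/PEG (vertical) against transcript length (horizontal, log axis) for genes tested, with ribosomal protein genes in red. The black line is the running median of the other genes. It falls from above 1 for the shortest genes to below 0 for genes over 2500 nt, and the ribosomal protein genes under 1000 nt have medians between 1.23 and 1.63.

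The length dependence differed between libraries and followed genotype. The slope of log2 CPM on log2 transcript length over the other genes was between 0.21 and 0.44 in WT/PEG, 0.17 and 0.36 for WT/NTZ, -0.28 and 0.26 in KO mice given PEG, and -0.23 and 0.02 in those given NTZ. Mitochondrially encoded genes took 5.81% to 11.7% of counts in WT/PEG and 5.805% to 11.6% in WT/NTZ. They took 2.37% to 14.4% in KO/PEG and 1.85% to 6.999% in KO/NTZ. The 5 KO/PEG libraries with slopes under -0.12 had ribosomal protein shares of 5.49% to 6.61% and mitochondrial shares of 2.37% to 3.72%, and the other 8 had 2.85% to 4.31% and 3.82% to 14.4%. In KO/NTZ, the 6 libraries with such slopes had shares of 4.75% to 6.56%, and the other 5 had 3.41% to 4.15%. Length slope, mitochondrial share and ribosomal protein share thus moved together among libraries of each KO group. The WT groups were not split by slope, and some WT libraries departed from this pattern. The part of RNA quality or library size selection was not tested.

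**Figure D4:**
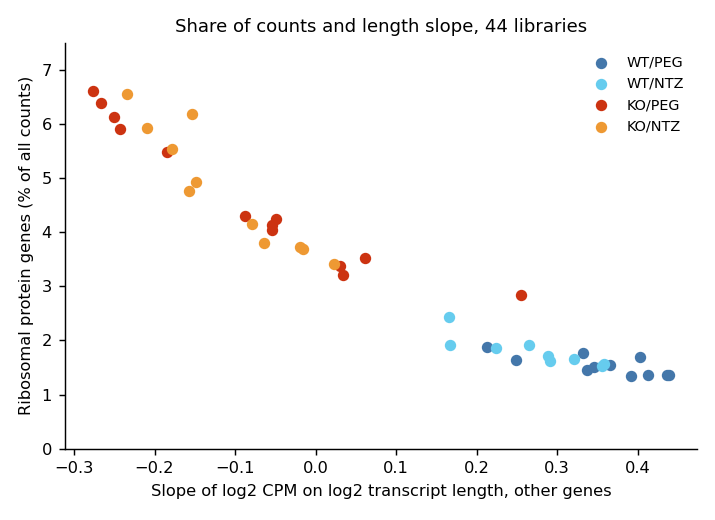
Percent of counts in ribosomal protein genes (vertical) against the slope of log2 CPM on log2 transcript length over the other genes (horizontal), 44 libraries coloured by group. The share is highest, up to 6.61%, where the slope is lowest, and KO/PEG library 46 lies near the WT libraries with a slope of 0.26.

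When the length curve of each library, drawn without the ribosomal protein genes, entered the fit as an offset, 75 of 82 genes were higher in KO/PEG and 1 was lower, with a median of 0.54, while 36.1% of all genes were higher and 31.4% lower. Rps27l had -0.425 (SE 0.06), and Rpl22l1, Rpl35, Rpl4, Rpl7, Rps27 and Rps7 did not pass. This offset, and the naming of Rpl35 and Rps7, were chosen after seeing the data. Rpl34 had 1.74 in place of 2.71 and Rpsa 1.32 in place of 1.54, among the highest values in that fit. With the slope of each library as a covariate, 1 gene was higher and 23 were lower, with a median of -0.29, while 16% of all genes were higher and 16.2% lower. Without KO/PEG library 46 no KO slope reached the WT range, so genotype and length slope cannot be told apart in that fit.

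No ribosomal protein gene passed the threshold for netazepide in KO mice. In KO/NTZ compared with KO/PEG, none of the 82 passed in either direction, 5 had an unadjusted p under 0.05, and the smallest adjusted p was 0.0595, while 5.56% of all genes passed. DESeq2 called 2 of the 82, both lower, while 4.74% of all genes were lower, and limma-trend called 0. The median log2 fold change was 0.12, with a range from -0.30 to 0.97 and 63 of 82 values above 0. Other genes of 500 to 750 and of 750 to 1000 nt had medians of 0.13 and 0.11. The ribosomal protein genes of those lengths had 0.11 and 0.13. Under 500 nt, other genes had -0.16 and ribosomal protein genes 0.22. With animals numbered below 100 alone (10 KO/NTZ and 6 KO/PEG libraries), the median of the 82 genes was 0.38 with 79 of 82 above 0, and 0 passed. The 5 genes with an unadjusted p under 0.05 were chosen after their values were seen. Rps7 had a log2 fold change of -0.30 (SE 0.10), with 71.6 to 126.1 CPM in KO/PEG and 45.4 to 98.7 CPM in KO/NTZ. It passed without KO/PEG library 46 (adjusted p = 0.0364 by edgeR) and in the fit with size factors of DESeq2 (adjusted p = 0.0424 by edgeR). Rpl4 had a log2 fold change of -0.17 (SE 0.07). Rps7 and Rpl4 passed with the length curve as an offset (-0.41, adjusted p = 0.0145, and -0.23, adjusted p = 0.0156, by edgeR). They also passed with the length slope as a covariate (-0.31, adjusted p = 0.0217, and -0.18, adjusted p = 0.0483, by edgeR). With pseudogenes added, Rps7 had -0.19 (adjusted p = 0.184 by edgeR) and Rpl4 -0.17 (adjusted p = 0.139 by edgeR). Of the combined counts of Rps7, 81.8% sat on pseudogenes.

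Rpl5, Rpl27 and Rps2 had log2 fold changes of 0.73 (SE 0.26), 0.78 (SE 0.28) and 0.97 (SE 0.43), with adjusted p of 0.0899, 0.0899 and 0.158 by edgeR. Rpl5 was at 25.5 to 205.5 CPM in KO/NTZ with a median of 34.2 and at 22.3 to 70.4 CPM in KO/PEG with a median of 32.2. KO/NTZ libraries 37 and 29 had 137.4 and 205.5 CPM of Rpl5 and 117.1 and 201.8 CPM of Rps2, above every other library. The same libraries had 3.23 and 12.3 CPM of Rpl13a, a 60S gene chosen after its values were seen, against 74.0 to 146.1 CPM in the other 9 KO/NTZ libraries. The log2 fold change of Rpl5 was -0.11 over coding transcripts alone and -0.12 with pseudogenes added, so its direction rests on how its reads were divided. That of Rps2 was 0.18 and 0.07 in the same fits. Rpl27 had 0.12 (adjusted p = 0.637 by edgeR) with pseudogenes added, but it passed with the length curve as an offset (0.94, adjusted p = 0.0111) and with the length slope as a covariate (0.66, adjusted p = 0.0185).

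In WT mice, 0 of the 82 genes passed in WT/NTZ compared with WT/PEG and 0 had an unadjusted p under 0.05 (edgeR), against 1.03% of all genes that passed. DESeq2 and limma-trend also called 0. The median was 0.19, with 81 of 82 log2 fold changes above 0 and the highest 0.65 for Rps27. With the length curve as an offset, the median was 0.09, with 79 of 82 above 0. With the length slope as a covariate, it was -0.11, with 9 of 82 above 0. In both fits 0 of the 82 passed, while 0.926% of all genes were higher with the offset and 0.443% with the covariate. Other genes of 500 to 750 nt had a median of 0.10, against 0.18 for the ribosomal protein genes of that length. In the fit of those 2 groups alone, 66 of the 82 genes had an unadjusted p under 0.05 and 0 passed, against 15.4% of all genes at an unadjusted p under 0.05. The 82 genes moved together within groups, so they are not independent. With animals numbered 100 or above alone (4 WT/NTZ and 11 WT/PEG libraries), 6 of the 82 genes were higher, against 4.17% of all genes. Between the NTZ effects in KO and in WT mice, 0 of the 82 differed (edgeR, 4 with an unadjusted p under 0.05), while 0.96% of all genes did. DESeq2 called 1.

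KO and WT mice given netazepide differed much as those given vehicle. In KO/NTZ compared with WT/NTZ, 80 of 82 genes were higher and none lower, with a median of 1.32, while 35.6% of all genes were higher. The CPM of 76 of the 82 did not overlap, against 14.4% of all genes. The 2 that did not pass were Rpl4 with 0.08 (SE 0.08) and Rps7 with 0.09 (SE 0.11). The smallest p-values were those of Rpl3 (1.31, SE 0.15), Rpl22 (0.86, SE 0.11), Rpl36a (1.66, SE 0.20), Rps27a (1.05, SE 0.13), Rpl23 (0.88, SE 0.11) and Rpl30 (1.26, SE 0.16). With the length curve as an offset, 64 were higher and 5 lower, with a median of 0.615, while 34.7% of all genes were higher and 32.8% lower. Rpl22 (0.07, adjusted p = 0.185 by edgeR) and Rpl23 (0.10, adjusted p = 0.0693 by edgeR) did not pass in that fit. Among the 5 lower were Rpl4 (-0.31, adjusted p = 0.00014 by edgeR) and Rps7 (-0.59, adjusted p = 3.76e-05 by edgeR). With pseudogenes added in place of the offset, Rpl4 had 0.10 (adjusted p = 0.259 by edgeR) and Rps7 was higher by 0.45 (adjusted p = 0.000131 by edgeR).

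Some paralogs of ribosomal protein genes differed in level and in how far they rose. Compared per length, in CPM per kb, Rplp1 and Rpl41 led in WT/PEG with 1298 and 1210, and Rps27rt was at 648.1 against 18.8 for Rps27 and 151.4 for Rps27l, a p53-inducible paralog. Rpl41 and Rps27rt were chosen after their values were seen. Since 7.6% of the 31-base words of Rps27rt are its own, reads of Rps27 and Rps27rt cannot be fully told apart. Rps27rt rose by 2.01 (SE 0.25), Rps27 by 1.29 (SE 0.39) and Rps27l by 0.53 (SE 0.12). The log2 ratio of Rps27l to Rps27 per length was 3.25 ± 0.86 (SD, n = 11) in WT/PEG and 2.43 ± 0.52 (SD, n = 13) in KO/PEG. The ranges of the ratio overlapped.

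Rpl22l1, whose level Rpl22 is known to restrain, rose by 0.92 (SE 0.10), close to Rpl22 itself. Their log2 ratio per length was -0.36 ± 0.10 (SD, n = 11) in WT/PEG and -0.43 ± 0.23 (SD, n = 13) in KO/PEG. Rpl7l1, a nucleolar protein similar to Rpl7, had a log2 ratio to Rpl7 per length of -5.19 ± 0.16 in WT/PEG and -5.68 ± 0.18 in KO/PEG (SD, n = 11 and 13). The order of their fold changes turned with the length curve as an offset, where Rpl7l1 had 0.34 (SE 0.08) and Rpl7 0.01 (SE 0.06). Rpl36al and Rpl36a rose by 1.36 (SE 0.20) and 1.63 (SE 0.19). With pseudogenes added, which held 54.4% of the combined counts of Rpl36a, they rose by 1.38 (SE 0.21) and 1.43 (SE 0.16). Their log2 ratio per length was 1.47 in WT/PEG and 1.18 in KO/PEG, and 0.13 and 0.04 with pseudogenes added. Rpl10l had 0 counts in all libraries. Rpl39l and Rpl3l, the muscle form of Rpl3, reached at most 0.734 and 1.02 CPM in any library, where 3 counts are worth 0.137 to 0.495 CPM.

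Several other groups of the translation machinery had more genes higher than lower in KO/PEG, where 37.5% of all genes were higher and 37.2% lower. Fau and Rack1, which encode further 40S proteins, rose by 2.20 (SE 0.30) and 0.91 (SE 0.12). Of the 8 elongation factors 4 rose and 0 fell, with Eef1b2 at 1.05 (SE 0.13) and Eef1g at 1.18 (SE 0.16). Of 26 other TOP messages 17 rose and 2 fell, with a median of 0.37, led by Eif3f at 1.13 (SE 0.11), Btf3 at 0.86 (SE 0.09) and Tpt1 at 0.73 (SE 0.08). With the length curve as an offset, 11 of the 26 rose and 6 fell, with a median of 0.01. Of 78 mitochondrial ribosomal protein genes 71 rose and 1 fell, with a median of 0.68, including Mrpl11 at 1.03 (SE 0.13), but with the length curve as an offset 35 rose and 16 fell, with a median of 0.10. Of all genes, 36.1% rose and 31.4% fell with that offset.

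Lists of genes that make ribosomes or act on translation differed in direction, where 37.5% of all genes were higher and 37.2% lower in KO/PEG. Of 43 nucleolar rRNA processing and assembly genes 21 rose and 7 fell, with a median of 0.20, including Imp3 at 1.25 (SE 0.16) and Nhp2 at 1.68 (SE 0.23). Of 12 RNA polymerase I genes 3 rose and 5 fell, with Polr1c at 0.76 (SE 0.08), Polr1d at 0.79 (SE 0.15) and Rrn3 at -0.38 (SE 0.08). Of 24 MYC and mTORC1 genes 10 rose and 12 fell. Mtor, the kinase that drives translation of TOP messages, fell by 1.42 (SE 0.08), Deptor, its inhibitor, by 1.12 (SE 0.15), and Eif4ebp1, which binds eIF4E, rose by 1.92 (SE 0.24). Mtor and Deptor transcripts are long, 7881 and 8546 nt. Of 9 cap-binding genes 2 rose and 6 fell. With the length curve as an offset, 18 nucleolar genes rose and 5 fell, with a median of 0.18, while 36.1% of all genes rose and 31.4% fell. In that fit 4 RNA polymerase I genes rose and 2 fell, 10 MYC and mTORC1 genes rose and 8 fell, and 4 cap-binding genes rose and 4 fell.

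In KO/NTZ compared with KO/PEG few of these genes passed, where 5.56% of all genes did. Eef1a1, the elongation factor that brings aminoacyl-tRNA, had -0.31 (SE 0.10, adjusted p = 0.0448 by edgeR), and Cct4, a chaperonin subunit, had -0.21 (SE 0.06). Polr1a had -0.21 (SE 0.06), Myc -0.35 (SE 0.10) and Sesn3 -0.61 (SE 0.15). None of the nucleolar, mitochondrial ribosomal or cap-binding genes passed.

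Cell type markers also differed between genotypes, and their part in the result was not tested. Of all genes, 37.5% were higher and 37.2% lower in KO/PEG. All 5 mucous neck and SPEM markers were higher in KO/PEG, and their summed level was 1813 to 2710 CPM in WT/PEG and 6998 to 63290 CPM in KO/PEG. Of the chief cell markers 3 of 4 were lower, and the sum fell from 88860 to 208500 CPM in WT/PEG to 2442 to 36550 CPM in KO/PEG. All 4 parietal markers were lower, with sums of 9305 to 15370 and 1993 to 7199 CPM. All 3 plasma cell markers were higher, with sums of 50.02 to 206.9 and 973.4 to 5611 CPM, and 3 of 4 T and B cell markers rose. All 4 smooth muscle markers were lower, as were 3 of 4 surface mucous and 3 of 4 dividing cell markers. Of the endocrine markers 3 of 4 were higher, of the macrophage markers 2 of 4 were higher, and 1 of 3 fibroblast markers was lower. With the length curve as an offset, 2 of 3 fibroblast markers were higher and 0 lower, and 2 endocrine markers were higher and 2 lower. In that fit 4 surface mucous, 3 smooth muscle and 2 dividing cell markers were lower, and 2 T and B cell markers were higher. The counts of the other marker lists were unchanged, while 36.1% of all genes were higher and 31.4% lower.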

How the data were processed

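The authors sequenced stranded messenger RNA libraries as single reads, quantified them with kallisto 0.42.4 on GRCm38 transcripts, and deposited estimated counts of 94080 transcripts, not normalized, for 44 libraries. Of these, 92372 were paired with GENCODE vM21 genes and summed per gene name. The 1708 others held up to 1.305% of a library's counts. Rounded sums were filtered with filterByExpr (minimum count 10, minimum total 15), TMM normalized and modelled in R 4.3.3 with edgeR 4.0.16 (quasi-likelihood F test, all 44 libraries in 1 model, Benjamini-Hochberg adjustment over all genes tested, threshold 0.05). The Sleuth test of the study was not repeated here. SE is the log2 fold change over the root of F. DESeq2 1.42.0, limma-trend 3.58.1 (prior count 2) and other settings were alternatives. The models were tested on simulated data. The length curve was a lowess fit (span 0.3) to each library's deviations from gene means. Pseudogenes were assigned by shared 31-base words. Floors of 3 counts cover counting error only.

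The genes and gene lists were chosen with earlier results of these data known. Named genes were the 6 smallest p-values per direction that passed in a comparison, the 3 largest and 3 smallest changes between KO/PEG and WT/PEG, stalk genes, paralog pairs, Rpsa, Rps6, Rps19, Rpl5, Rpl11, Rps27a, Rps19bp1, and the 3 smallest p-values of each list. Some genes of the lists are not reported here.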

Additional observations from a re-analysis of the deposited data

Results flagged for a closer look

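Of 32 items tested for outliers in the 9 WT/NTZ libraries, 3 had a library whose gap to the next, as a share of the whole range, passed Dixon's 95% critical value, which chance does for about 1 group in 20. The share of counts in ribosomal protein genes reached 2.43% in 1 WT/NTZ library, where the next highest was 1.923%. The summed markers of that library also stood apart from the other 8 WT/NTZ libraries, with plasma cell markers at 1457 CPM against 45.97 to 199.9, T and B cell markers at 52.48 CPM against at most 11.43, macrophage markers at 307 CPM against at most 142.9, and chief cell markers at 61620 CPM against at least 135700. Their part in its share was not tested. Rps27 was at 44.79 CPM in another, against 19.73 CPM in the next. Rpl4 was at 915.6 CPM in WT/NTZ library 86, against 809.9 CPM in the next.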

How the results depend on the processing

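No paired analysis was possible because the groups share at most 1 animal number. With each library's length slope entered as a covariate, 1 ribosomal protein gene was higher and 23 lower in KO/PEG compared with WT/PEG (median -0.29), 0 higher and 3 lower in KO/NTZ compared with WT/NTZ (median -0.073), 1 higher and 2 lower in KO/NTZ compared with KO/PEG, and 7 differed in NTZ effect between genotypes. Of all genes, 16% were higher and 16.2% lower in KO/PEG compared with WT/PEG, and 10.9% and 10% in KO/NTZ compared with WT/NTZ. In KO/NTZ compared with KO/PEG, 6.56% of all genes were higher and 4.81% lower. The difference in NTZ effect was above 0 for 5.66% of all genes and below 0 for 4.06%. In that fit the log2 fold changes between KO/PEG and WT/PEG turned negative for Rplp0 (-0.29), Rplp1 (-0.58), Rplp2 (-0.49), Rpsa (-0.49), Rps6 (-0.13), Rps19 (-0.11), Rpl5 (-0.75), Rpl11 (-0.30), Rps27 (-1.25), Rps27l (-0.57), Rpl10 (-0.56), Rpl39 (-0.027), Rps4x (-0.0035), Rpl7l1 (-0.20), Rpl36a (-0.090), Rpl36al (-0.61), Rps19bp1 (-0.45), Rpl28 (-0.60) and Rps2 (-1.12). Of these, Rplp1, Rpsa, Rps27l, Rpl36al, Rps19bp1 and Rpl28 passed and the others did not, among them Rps27 (SE 0.59) and Rps2 (SE 0.60). With the length curve as an offset, chosen after seeing the data, 1 gene was lower in KO/PEG (median 0.54), 5 were lower in KO/NTZ compared with WT/NTZ (median 0.615), and 2 were higher and 4 lower in KO/NTZ compared with KO/PEG. Of all genes, 31.4% and 32.8% were lower in the first 2 comparisons, and 4.46% were higher and 4.05% lower in the last. Rps27l then had -0.425 in KO/PEG and passed, and Rpl4 had -0.035 (SE 0.06) and did not. The cause was not tested.

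In KO/NTZ compared with KO/PEG, 1 gene was lower with DESeq2 size factors in edgeR, 2 with DESeq2 and 1 without KO/PEG replicate 46, and DESeq2 called 1 difference in NTZ effect. Of all genes, 3.1%, 4.74% and 2.13% were lower in those fits of KO/NTZ compared with KO/PEG. Rpl5 had -0.11 there over coding transcripts and -0.12 with pseudogenes added by sequence. Without a filter, 1 gene was lower in each KO to WT comparison, against 25.4% (PEG) and 25.2% (NTZ) of all genes. The lowest log2 fold changes in those fits were -6.44 and -8.50. Rps12, otherwise left out by the filter, was at 0 in all KO, 9 of 11 WT/PEG and 5 of 9 WT/NTZ libraries. With pseudogenes added by sequence it was higher in KO/PEG by 1.49. With animals numbered 100 or above alone, 6 genes were higher in WT/NTZ, against 4.17% of all genes. The median share of counts was 1.886% in WT/PEG and 2.112% in WT/NTZ with named pseudogenes added, and 2.254%, 2.521%, 5.93% and 6.426% in WT/PEG, WT/NTZ, KO mice given PEG and KO mice given NTZ with pseudogenes added by sequence. The cause was not tested.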
